A study of Sus scrofa with 4 samples.

Results

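The muscle miRNAs miR-1, miR-206, miR-133a-3p, miR-133a-5p and miR-133b were followed in the longissimus dorsi, a long muscle along the spine, of 4 pig breeds. They were taken by name from a table of known miRNAs, in which 5 of 271 rows carry these names. The indigenous Chinese breed type comprised Diannan Small Ear and Tibetan pigs, the introduced type Landrace and Yorkshire pigs. Each breed was represented by 1 small RNA library sequenced on a HiSeq 2000, so that each breed type had 2 libraries. All groups shared the same muscle and, per the labels, the same extraction and library kit. Whether 1 or several animals contributed to a library is not stated in the labels, nor are age, sex and any batch. The p-values given here reflect only how far these libraries varied, and that variation may be technical.

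These miRNAs, known as myomiRs, are made almost only in striated muscle. In mammals a miR-1 gene and a miR-133a gene are transcribed together as 1 primary RNA, and miR-206 and miR-133b form a second such transcript that is active in skeletal muscle and not in the heart. miR-1 and miR-206 carry the same seed, the short stretch that selects targets, and in mouse myoblasts both favour differentiation. miR-133a-3p and miR-133b also share a seed with each other and have been linked to myoblast proliferation. miR-133a-5p is the opposite arm of the miR-133a hairpin and is usually the passenger strand.

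The RefSeq annotation of the pig (Sscrofa11.1) names 5 genes of these miRNAs. MIR1 and MIR133A-1 are next to each other, between GATA5 and SLCO4A1. MIR206 and MIR133B are next to each other as well, followed by IL17A and IL17F. A further gene, MIR133A-2, lies within MIB1. Both miR-133a genes give the same mature miRNA in mammals, so reads of miR-133a-3p cannot be assigned to a locus. The ratio of miR-1 over miR-133a-3p can thus not be read as the output of 1 shared transcript. No miR-1 gene is named beside MIR133A-2, but a missing entry does not show that none exists. The mature miR-133a-3p and miR-133b are near-identical, and no source used here says how reads were divided between them, which leaves their separate values uncertain.

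The libraries held between 2507082 (Landrace) and 5346460 (Yorkshire) counts over all listed miRNAs. They did not group by breed type. Diannan Small Ear was like Landrace, and Tibetan like Yorkshire, in most of what follows. The files do not show whether every library carries the right breed label, and comparisons of types rest on the labels as given. For this reason the values are given for each library first.

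miR-1 was either a minor or a dominant miRNA, depending on the library. It had 11541 counts in Diannan Small Ear and 8909 in Landrace, against 2996345 in Tibetan and 4953164 in Yorkshire. This placed it at rank 20 and 22 of the listed miRNAs in Diannan Small Ear and Landrace, and at rank 1 in Tibetan and Yorkshire. The types overlapped, since each held 1 library with much and 1 with little miR-1. In tissue RNA, fewer muscle fibres and less of a miRNA per fibre cannot be told apart.

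miR-206, the relative of miR-1 with the same seed, followed the same division. The Diannan Small Ear library held 2661 counts and the Landrace library 3081, against 123551 in Tibetan and 150661 in Yorkshire. Its share of the library was 0.0591% in Diannan Small Ear (95% Wilson interval 0.0569 to 0.0614) and 0.123% in Landrace (0.119 to 0.127). In Tibetan and Yorkshire it was 3.44% (3.42 to 3.46) and 2.82% (2.80 to 2.83), which made it the second most abundant miRNA of both. Such intervals cover counting error only, because PCR copies of a molecule were not told apart by molecular identifiers.

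miR-133a-3p, the main arm of the miR-133a hairpin, held rank 3 in all 4 libraries. The counts were 243554 (Diannan Small Ear), 167451 (Landrace), 103226 (Tibetan) and 59941 (Yorkshire). As a share of the library this was 5.41% for Diannan Small Ear (95% Wilson interval 5.39 to 5.43), 6.68% for Landrace (6.65 to 6.71), 2.87% for Tibetan (2.86 to 2.89) and 1.12% for Yorkshire (1.11 to 1.13). Its share was lower in the 2 libraries in which miR-1 was dominant.

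miR-133b, the partner of miR-206, gave the same order of shares as miR-133a-3p. Diannan Small Ear had 3745 counts and Landrace 3256, while Tibetan had 1742 and Yorkshire 1618. These were shares of 0.0832% and 0.130% in the former and of 0.0485% and 0.0303% in the latter libraries. Its rank lay between 26 (Yorkshire) and 37 (Tibetan).

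miR-133a-5p was the rarest of the 5 in Diannan Small Ear, Landrace and Yorkshire, and more abundant than miR-133b in Tibetan. Its 301 counts in Diannan Small Ear and 308 in Landrace compared with 2188 in Tibetan and 1039 in Yorkshire. Its share of 0.0609% in Tibetan and 0.0194% in Yorkshire exceeded the 0.00669% of Diannan Small Ear and the 0.0123% of Landrace. In this it followed miR-1 and miR-206, not the other arm of its own hairpin.

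**Figure D1:**
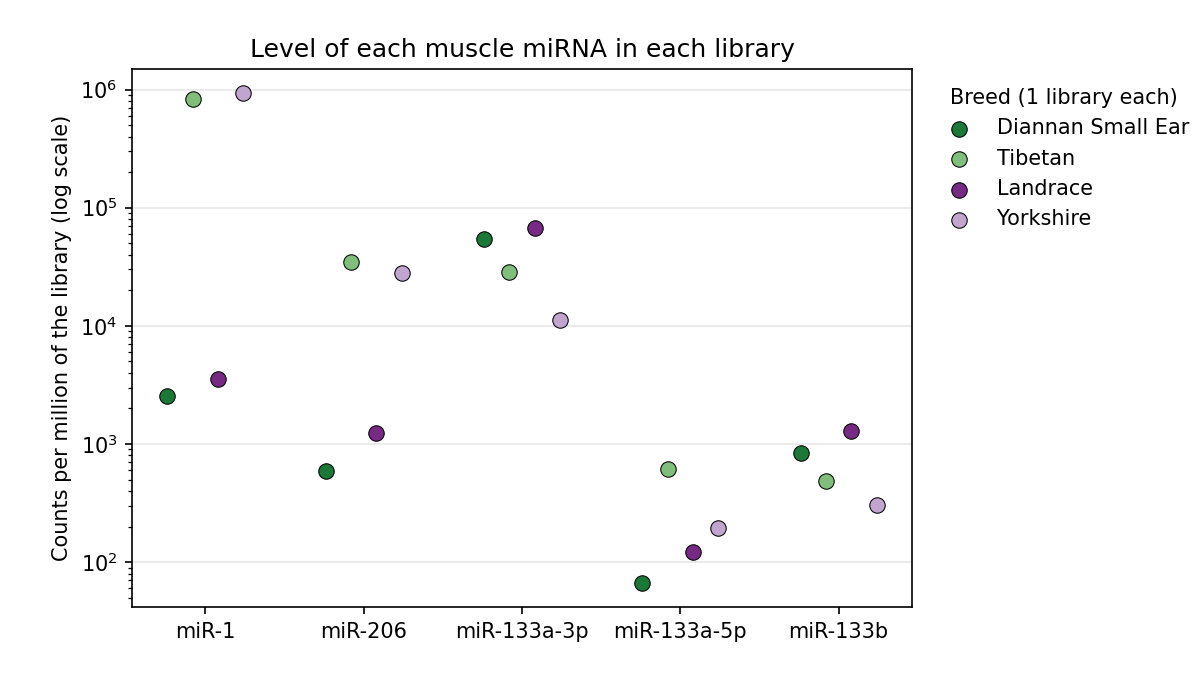
Level of each muscle miRNA (x axis) in counts per 1000000 counts of the library (CPM; y axis, log scale), with 1 point per library and no error bars because each breed had 1 library. miR-1 and miR-206 are high in Tibetan and Yorkshire, while miR-133a-3p stays between 11211 and 66791 CPM in all 4 libraries.

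Together the 5 miRNAs took 5.82% of the Diannan Small Ear counts, 89.8% of the Tibetan, 7.30% of the Landrace and 96.6% of the Yorkshire counts. Without miR-1 the other members took 5.56%, 6.42%, 6.94% and 3.99% of the library, in the same order. The large difference in their joint share of the library was thus carried by miR-1. However, miR-1 itself filled 83.4% of the Tibetan and 92.6% of the Yorkshire total. Relative to the counts of all miRNAs but the 5, the members without miR-1 measured 59038 CPM in Diannan Small Ear and 74910 in Landrace. In Tibetan they measured 630947 CPM and in Yorkshire 1184529, so their similar shares do not show similar levels. Within the group, miR-133a-3p supplied 93.0% of the member counts in Diannan Small Ear and 91.5% in Landrace, whereas miR-1 supplied 92.9% in Tibetan and 95.9% in Yorkshire. By seed, miR-1 with miR-206 made up 5.42% of the member counts for Diannan Small Ear and 6.55% for Landrace, against 96.7% for Tibetan and 98.8% for Yorkshire.

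The miRNAs of the miR-1 and miR-133a transcript were compared as a ratio of counts within each library, a measure that does not depend on how libraries are scaled. miR-133a-3p was the more abundant partner in Diannan Small Ear, with 21.1 counts for each count of miR-1 (95% exact interval 20.7 to 21.5), and in Landrace, with 18.8 (18.4 to 19.2). miR-1 was the more abundant partner in Tibetan, with 29.03 counts for each count of miR-133a-3p (28.85 to 29.21), and in Yorkshire, with 82.6 (82.0 to 83.3). The ratio of miR-1 over miR-133a-3p was 613-fold higher in Tibetan than in Diannan Small Ear (95% Woolf interval for counting error 601 to 625) and 1553-fold higher in Yorkshire than in Landrace (1518 to 1589). Across types but within the like libraries it differed 1.12-fold, higher in Landrace than in Diannan Small Ear (1.09 to 1.16), and 2.85-fold, higher in Yorkshire than in Tibetan (2.82 to 2.88). The partners therefore changed order between the libraries of one type, and kept it between Diannan Small Ear and Landrace as well as between Tibetan and Yorkshire.

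The ratio of miR-206 over miR-133b followed the same division over a smaller range. It was 0.711 in Diannan Small Ear (95% exact interval 0.676 to 0.747) and 0.946 in Landrace (0.900 to 0.994), close to equal counts of both partners. It was 70.9 in Tibetan (67.6 to 74.4) and 93.1 in Yorkshire (88.7 to 97.8). The ratio was 99.8-fold higher in Tibetan than in Diannan Small Ear (95% Woolf interval 93.2 to 107) and 98.4-fold higher in Yorkshire than in Landrace (91.8 to 105). Between Diannan Small Ear and Landrace it differed 1.33-fold and between Tibetan and Yorkshire 1.31-fold, higher in the introduced library each time.

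The members with a shared seed stayed closer to each other than the partners of a transcript did. miR-1 exceeded miR-206 in every library, 4.34-fold in Diannan Small Ear and 2.89-fold in Landrace, and 24.3-fold in Tibetan and 32.9-fold in Yorkshire. The highest of these ratios was 11.4 times the lowest. miR-133a-3p exceeded miR-133b 65.0-fold in Diannan Small Ear and 51.4-fold in Landrace, and 59.3-fold in Tibetan and 37.0-fold in Yorkshire. Here the highest ratio was 1.76 times the lowest. How reads were divided between these near-identical miRNAs is not stated, so this narrow span is uncertain. For the partners of a transcript the highest ratio was 1744 times the lowest for miR-1 over miR-133a-3p, and 131 times for miR-206 over miR-133b.

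**Figure D2:**
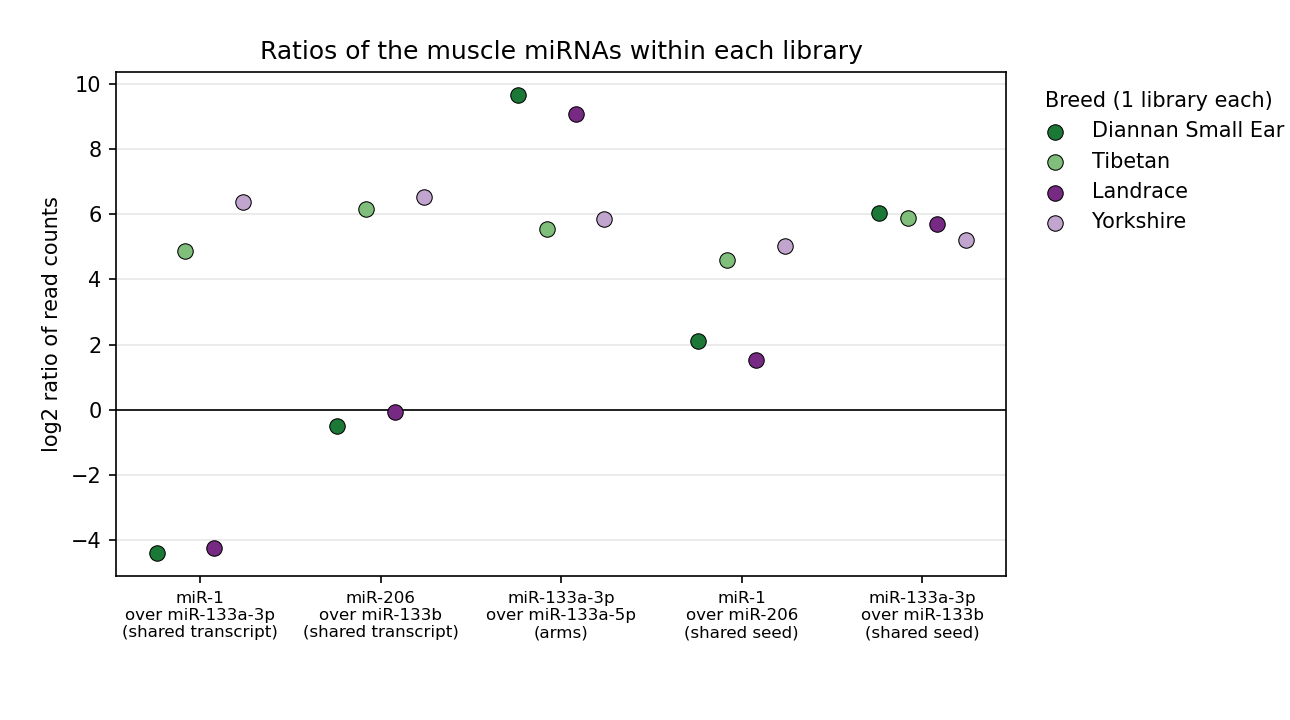
The log2 ratio of read counts (y axis) of 5 combinations of the muscle miRNAs (x axis) within each library, 1 point per library. A value above 0 means more counts of the first miRNA. Both transcript partners change sides of 0 between libraries, while miR-133a-3p over miR-133b stays between 5.21 and 6.02.

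The arms of miR-133a kept their order in all libraries, with the 3p arm always the more abundant. The 3p arm had 809 counts for each count of the 5p arm in Diannan Small Ear (95% exact interval 723 to 909) and 544 in Landrace (486 to 610). It had 47.2 in Tibetan (45.2 to 49.2) and 57.7 in Yorkshire (54.3 to 61.4). The 5p arm thus made up 17.2 times as much of the hairpin's reads, relative to the 3p arm, in Tibetan as in Diannan Small Ear (95% Woolf interval 15.2 to 19.4), and 9.42 times as much in Yorkshire as in Landrace (8.30 to 10.7). The libraries with more miR-1 were those with relatively more of the 5p arm. Most other hairpins compared below also separated these libraries, in one direction or the other, so the division is not particular to miR-133a. In Diannan Small Ear and Landrace the ratio rests on about 300 counts of the 5p arm (301 and 308).

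These ratios were set beside those of other miRNAs. Of 53 other hairpins with both arms listed, 17 had at least 10 counts of each arm in every library. The highest arm ratio among the libraries exceeded the lowest by 1.57-fold (miR-30a) to 132-fold (miR-374a), with a median of 3.61-fold. The 17.2-fold of miR-133a was exceeded by 3 of these 17. In 3 of them the more abundant arm was not the same in all libraries, which was not so for miR-133a. All but miR-145 and miR-30c separated Diannan Small Ear and Landrace from Tibetan and Yorkshire, as miR-133a did. For miR-22 the 3p arm had 761 and 748 counts for each count of the 5p arm in the former libraries. In the latter it had 34.3 and 58.3.

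Other miRNAs known to be transcribed as a cluster in mammals gave 16 usable combinations of 24, by the same minimum. Their ratios spanned 1.66-fold (miR-199a with miR-214) to 161-fold (miR-191 with miR-425), with a median of 5.59-fold. None of the 16 reached the 1744-fold of miR-1 over miR-133a-3p, and 2 exceeded the 131-fold of miR-206 over miR-133b. The more abundant miRNA was not the same in all libraries in 4 of the 16, as in both muscle transcripts. The ratios of all 16 separated Diannan Small Ear and Landrace from Tibetan and Yorkshire, so that division is not particular to the muscle transcripts. miR-191 over miR-425, for example, was 416 and 378 in the former and 3.50 and 2.58 in the latter. Some of these clusters have mature miRNAs that also come from other loci, as miR-133a does.

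Among all 9453 combinations of the 138 miRNAs with at least 10 counts in each library, the median span of the ratio was 7.96-fold. A span as wide as that of miR-1 over miR-133a-3p was found in 1.04% of them, and 58 of those 98 combinations contained miR-1. For miR-206 over miR-133b the share was 8.26%, for the arms of miR-133a 31.99%, for miR-1 over miR-206 41.6% and for miR-133a-3p over miR-133b 94.7%. Combinations that share a miRNA are not independent, so these shares describe the table and are not a test.

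**Figure D3:**
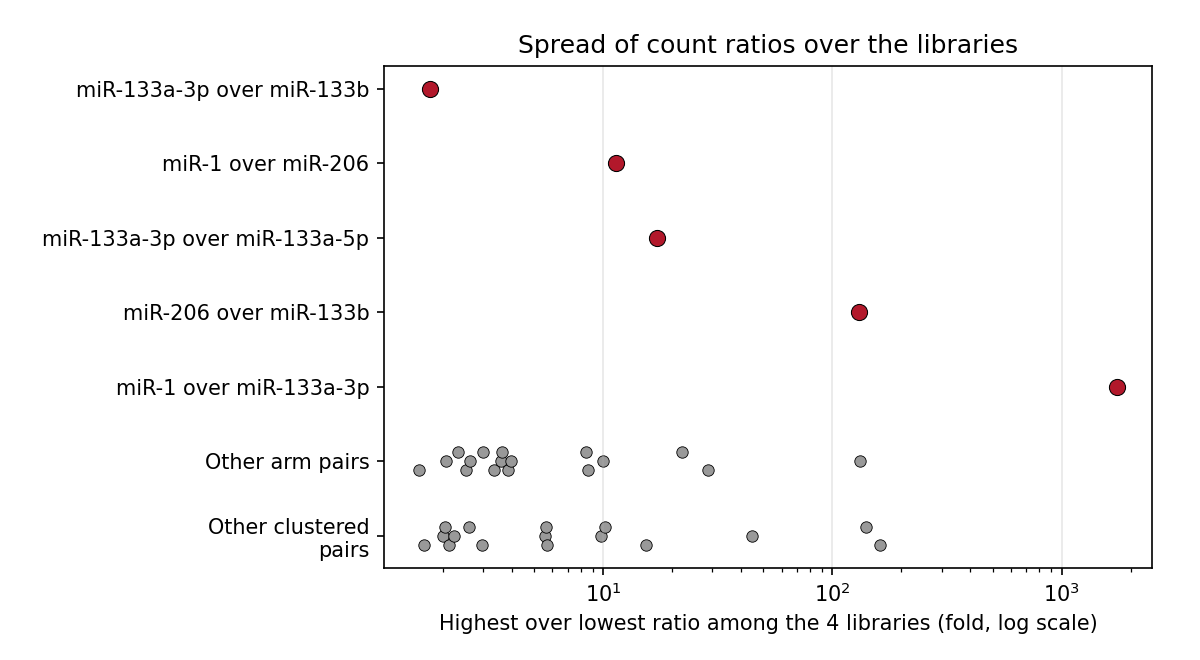
The highest over the lowest count ratio among the 4 libraries (x axis, fold, log scale) for the 5 combinations of muscle miRNAs (red), for 17 other arm pairs and for 16 other clustered pairs (grey, 1 point per pair, offset vertically for legibility). miR-1 over miR-133a-3p lies at 1744-fold, beyond every grey point, and miR-133a-3p over miR-133b at 1.76-fold, near the lower end.

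Levels, unlike ratios within a library, depended on the library size used. With TMM scaling, which assumes that most miRNAs do not differ, miR-133a-3p measured 40624 CPM in Diannan Small Ear and 30191 in Landrace, and 29179 in Tibetan and 32543 in Yorkshire, a 1.39-fold range. With total counts the highest level, in Landrace, was 5.96 times the lowest, in Yorkshire. Relative to the counts of all miRNAs other than the 5 members, the direction turned, and Yorkshire was 4.62-fold above Landrace. In none of the 6 comparisons of single libraries did miR-133a-3p or miR-133b keep 1 direction under TMM, RLE, total counts and counts of the other miRNAs. Whether miR-133a-3p and miR-133b differed between the libraries can therefore not be stated from these counts.

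miR-1, miR-206 and miR-133a-5p were higher in Tibetan and Yorkshire than in Diannan Small Ear and Landrace under each of these 4 library sizes. miR-1 was 440-fold higher in Tibetan than in Diannan Small Ear with TMM scaling, 325-fold with total counts and 3010-fold relative to the other miRNAs. miR-133a-5p was 12.3-fold higher in Tibetan than in Diannan Small Ear with TMM scaling (95% exact interval 10.9 to 13.9) and 9.11-fold with total counts. It was 10.2-fold higher in Yorkshire than in Landrace (8.94 to 11.6), but 1.58-fold with total counts. With TMM scaling miR-1 in Yorkshire reached 2689155 CPM, since its TMM factor of 0.345 makes the scaled library size smaller than the library itself.

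**Figure D4:**
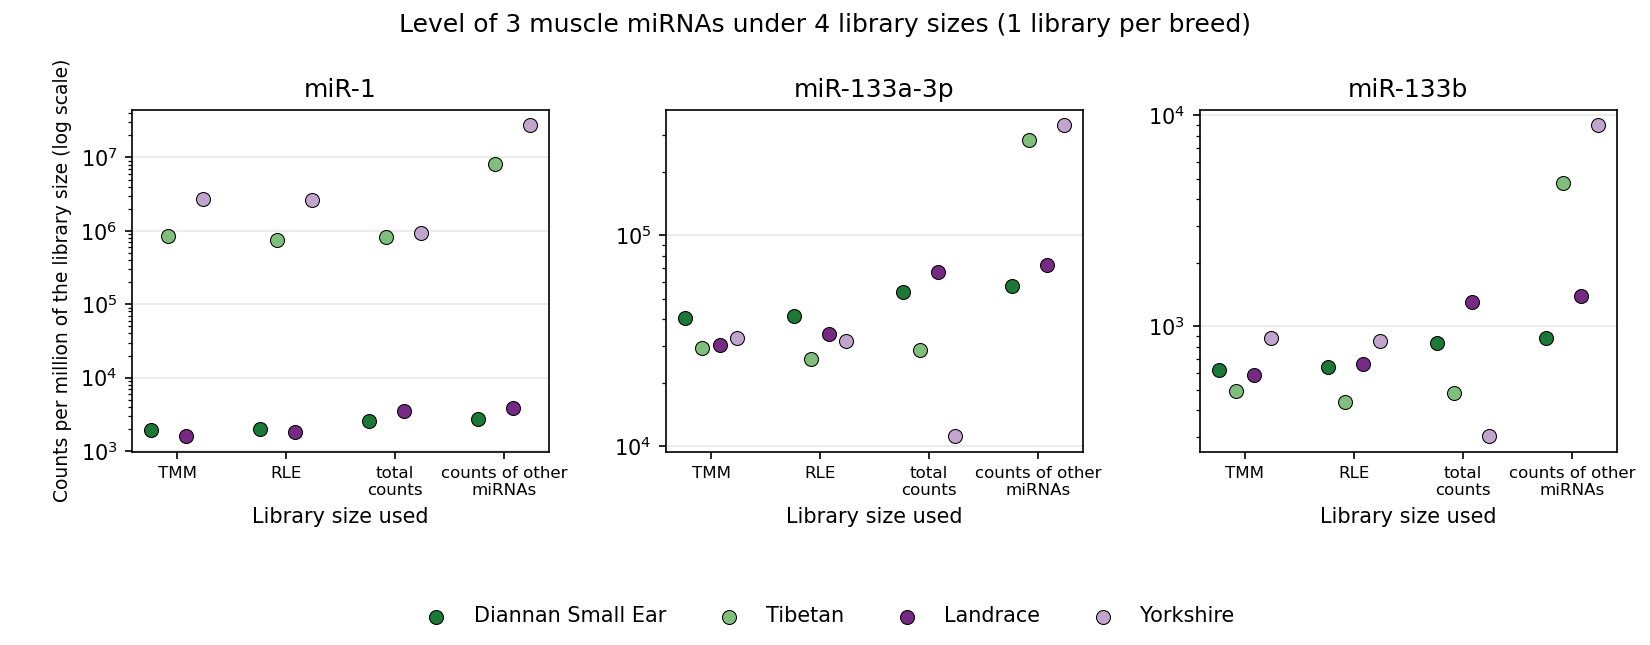
Levels of miR-1, miR-133a-3p and miR-133b (panels) in CPM by 4 library sizes (x axis), namely TMM, RLE, total counts and the counts of all miRNAs but the 5 members, on a log y axis with 1 point per library. miR-1 keeps Tibetan and Yorkshire on top throughout, whereas miR-133a-3p has Yorkshire lowest with total counts and highest relative to the other miRNAs.

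By TMM scaling miR-1, miR-206 and miR-133a-5p, 3 of the 5 miRNAs, were at least 2-fold apart in Diannan Small Ear and Tibetan, beside 63.9% of all tested miRNAs. The same 3 did so between Landrace and Yorkshire (background 66.7%), between Diannan Small Ear and Yorkshire (66.7%) and between Tibetan and Landrace (68.6%). Between Diannan Small Ear and Landrace 0 of 5 did, against 8.67% of all, and between Tibetan and Yorkshire miR-1 (3.18-fold) and miR-206 (2.34-fold) were higher in Yorkshire, against 24.5%. With total counts the latter became 1.11-fold for miR-1, and miR-206 turned to 1.22-fold higher in Tibetan. In the first 4 comparisons the share of members past 2-fold was thus near the background, while the size of the difference was large for miR-1 and miR-206. Of the 138 miRNAs with enough counts in each library they had the widest and second widest range, 1674-fold and 184-fold, where the median was 3.87-fold. With total counts they came at rank 3 and 14, at 361-fold and 58.2-fold, where the median was 8.12-fold. These single libraries allow no test.

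Between the breed types none of the 5 miRNAs differed beyond the spread of the libraries. miR-1 measured 424456 ± 597549 CPM in indigenous and 1345381 ± 1900384 in introduced breeds on the TMM scale (SD, n = 2 each). Its log2 fold change, indigenous over introduced, was -1.66 ± 4.15 (SE, edgeR adjusted p = 0.996). For miR-206 the means were 17684 ± 24381 and 41176 ± 57446, a log2 fold change of -1.22 ± 2.83. For both miRNAs the SD was larger than the mean. miR-133a-3p gave 34902 ± 8093 and 31367 ± 1663 (0.15 ± 1.33), miR-133a-5p 334 ± 402 and 310 ± 360 (0.11 ± 1.68), and miR-133b 559 ± 93.5 and 733 ± 206 (-0.39 ± 0.83). The edgeR adjusted p was 0.996 for each. The median log2 fold change of the 5 was -0.39, and 0.12 over all 197 tested miRNAs.

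Of the members 0 passed the threshold by edgeR, DESeq2 or limma-voom, and none of these tools gave an unadjusted p under 0.05 for any of them (0 of 5). Of all 197 tested miRNAs edgeR called 0 (0%), and 1 had an unadjusted p under 0.05. The direction depended on single libraries. Without Yorkshire the log2 fold change was 7.91 for miR-1 and 4.86 for miR-206, and without Tibetan it was -9.44 and -6.53. Without Diannan Small Ear that of miR-133a-3p turned to -0.22, and that of miR-133a-5p was -2.62 without Tibetan and -0.61 without Landrace. With TMM scaling the types overlapped for all 5 miRNAs, beside 13.7% of tested miRNAs whose types did not overlap. With RLE scaling miR-133b was higher in both introduced libraries than in both indigenous ones. The share of all miRNAs without overlap was not computed under RLE, so this order cannot be called particular to miR-133b.

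The ratios of the transcript partners, of the arms and of miR-1 over miR-206 overlapped between the types. The log2 ratio of miR-1 over miR-133a-3p was 0.23 ± 6.55 in indigenous and 1.07 ± 7.50 in introduced breeds (SD, n = 2 each, exact permutation test, two-sided p = 0.667). That of miR-206 over miR-133b was 2.83 ± 4.70 and 3.23 ± 4.68 (exact p = 0.667). The arm ratio of miR-133a was 7.61 ± 2.90 and 7.47 ± 2.29 (exact p = 1), and that of miR-1 over miR-206 3.36 ± 1.76 and 3.29 ± 2.48 (exact p = 1). For miR-133a-3p over miR-133b both indigenous libraries lay above both introduced ones, at 5.96 ± 0.09 against 5.45 ± 0.33 (exact permutation p = 0.333). With 2 libraries against 2 the smallest possible p is 0.333, so no ratio could pass 0.05. These are 5 ratios over the same libraries. Without Diannan Small Ear, and likewise without Yorkshire, the difference between types changed sign for both transcript ratios, to 3.79 and 4.46 for miR-1 over miR-133a-3p and to 2.92 and 2.91 for miR-206 over miR-133b. It changed sign in the same cases for the arms, to -1.91 and -1.48. For miR-1 over miR-206 it did so without Tibetan (-1.17) and without Landrace (-1.68).

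The authors' deposited table also compares the types. Its fold of indigenous over introduced is 0.900 for miR-1, 1.19 for miR-206, 1.06 for miR-133a-3p, 2.13 for miR-133a-5p and 0.822 for miR-133b. In the authors' deposited table all 5 have an FDR under 0.05, from 0.000980 for miR-133b down to a value listed as 0 for miR-1, as have 30.6% of all 271 rows. No source used here names the test behind the authors' values. In the counts of the same table, the 2 libraries of a type differed far more in miR-1 and miR-206 than the deposited means of the types do.

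Among the 197 tested miRNAs, the profiles most like that of each member were sought by the root mean square difference of log2 TMM-scaled levels (prior count 2) over the 4 libraries, each centred on its own mean. For miR-1 these were miR-3613 (1.48), miR-206 (1.52) and miR-374a-5p (1.59). For miR-206 they were miR-3613 (0.35), miR-374a-5p (0.57) and miR-499-3p (0.63), the last a miRNA from a slow-myosin gene with 0 counts in Diannan Small Ear and Landrace. miR-133a-3p was nearest to miR-151-5p (0.15), miR-345-3p (0.19) and miR-1306-5p (0.23), and miR-133b to miR-935 (0.10), miR-1306-5p (0.12) and miR-542-5p (0.15). miR-133a-5p was nearest to miR-142-3p (0.12), miR-450a (0.18) and miR-148b-3p (0.18). Several of these neighbours had few counts in a library, such as miR-935 (6 to 16), miR-1306-5p (7 to 19) and miR-142-3p (9 to 86). miR-3613, the nearest to both miR-1 and miR-206, had 13 counts in Diannan Small Ear and 7 in Landrace. The distances of all these neighbours are therefore uncertain. Between members, miR-133a-3p and miR-133b lay 0.31 apart and the arms of miR-133a 1.84, whereas the transcript partners lay 4.99 (miR-1 and miR-133a-3p) and 3.32 (miR-206 and miR-133b) apart. Over 4 libraries such likeness is a description of these libraries only.

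Other miRNAs of striated muscle differed in both directions between the same libraries. miR-499-5p, from a slow-myosin gene, measured 39.9 CPM in Diannan Small Ear and 82.2 in Landrace, and 367 in Tibetan and 591 in Yorkshire (TMM-scaled), an order it kept under all 4 library sizes. miR-486, abundant in muscle and in red blood cells, had the opposite order under all 4, with 88485 and 64364 against 5814 and 5793. miR-378, which lies in the PPARGC1B gene in human and mouse, measured 7475 and 5720 against 1988 and 1411. miR-208b, from another slow-myosin gene, was also higher in Diannan Small Ear and Landrace, at 86.9 and 195 against 48.6 and 77.6. Relative to the counts of miRNAs other than the 5 members, miR-378 and miR-208b were instead higher in Tibetan and Yorkshire. Between the breed types 0 of these 5 passed (miR-499-3p included) by edgeR, with 2 estimates higher and 3 lower in indigenous breeds.

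Muscle miRNAs were counted in all 4 libraries, and so were markers of other cells. On the TMM scale 6 of 7 listed white blood cell miRNAs summed to 208 CPM in Diannan Small Ear and 191 in Landrace. The sum was 339 in Tibetan and 247 in Yorkshire, an order that total counts did not keep. miR-146a-5p supplied most of it, and the list was not uniform. miR-142-3p, miR-142-5p and miR-150 had the same order, but miR-146b overlapped. miR-155-5p was higher in Diannan Small Ear and Landrace (6.84 and 6.85 against 4.52 and 3.26). The sum was 1825 to 3018 for 4 endothelial miRNAs and 9008 to 16879 for 7 stromal and smooth muscle miRNAs. miR-126-5p and miR-143-3p made up most of these sums, and some other listed miRNAs were, like miR-1, higher in Tibetan and Yorkshire. miR-199a-5p measured 59.4 and 55.7 CPM in Diannan Small Ear and Landrace against 515 and 416 in Tibetan and Yorkshire, an order kept under all 4 library sizes. miR-126-3p (146 and 180 against 1152 and 578) and miR-145-5p (37.0 and 39.7 against 253 and 99.9) were so as well, but overlapped with total counts. The other listed endothelial miRNAs were instead higher in Diannan Small Ear and Landrace, except relative to the counts of the other miRNAs. They were miR-126-5p (2365 and 2726 against 1859 and 1238), miR-221-3p (7.34 and 11.7 against 4.24 and 5.97) and miR-222 (6.84 and 7.03 against 2.54 and 2.71). These 3 lists had no miRNA of the table at 0 in any library. The 2 of 7 listed epithelial miRNAs summed to 0.334 to 3.25. miR-429 was at 0 in Tibetan and Yorkshire, but had only 1 count in Diannan Small Ear and 3 in Landrace. The 3 of 4 listed neural miRNAs summed to 295 to 794, nearly all of it miR-128. This sum was higher in Diannan Small Ear and Landrace except relative to the counts of the other miRNAs. miR-124a was at 0 in Diannan Small Ear and Landrace, against 4 counts in Tibetan and 3 in Yorkshire. miR-9 was at 0 in Tibetan and had 1 to 6 counts elsewhere. Such counts are too few to read a division of the libraries from. The sum of the 4 liver miRNAs was higher in the libraries with little miR-1, at 589 in Diannan Small Ear and 476 in Landrace against 37.9 in Tibetan and 97.7 in Yorkshire, and miR-192 supplied most of the former. With TMM miR-192 was the 1 of these 4 with that order, while miR-122 and miR-885-5p overlapped and miR-194a was higher in Tibetan and Yorkshire. With total counts all 4 were higher in Diannan Small Ear and Landrace. Relative to the counts of the other miRNAs the liver sums overlapped. The sum of the 3 erythroid miRNAs was 88552 and 64481 against 6184 and 5930, nearly all of it miR-486, while miR-144 of red blood cells was lower where miR-1 was low (3.67 and 6.31 against 135.97 and 43.98) and miR-451, the other red blood cell miRNA of the list, overlapped (63.7 and 111 against 234 and 93.4). The part of these cells and of the TMM factors (0.345 in Yorkshire to 2.21 in Landrace) in the differences of miR-1 and miR-206 was not tested.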

How the data were processed

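Small RNA libraries of longissimus dorsi muscle from 4 pig breeds were analysed from a table of 271 known miRNAs. The authors deposited whole-number read counts per miRNA and library, per the file headers. No source used here names the aligner, miRNA database or genome build. The deposited CPM values equalled each count over its column total to within 4.2e-05. The authors also deposited a mean signal per breed type, a fold (ratio) of these means, and p-values with FDR values from an unnamed test.

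For the breed types, filterByExpr kept 197 miRNAs, including all 5 members, which entered the two-sided quasi-likelihood test of edgeR 4.0.16 (glmQLFit, glmQLFTest) with TMM scaling, Benjamini-Hochberg adjustment over all 197 and a threshold of 0.05. There were 2 residual degrees of freedom, and the biological coefficient of variation was 98.6%. The SE was the log2 fold change over the square root of F. The test was checked on simulated counts, but a pass was required only at variation far below that of these data. The check therefore does not show the power of the test here. Ratios within a library carry 95% exact (Clopper-Pearson) intervals, and their folds between libraries Woolf intervals (scipy 1.17.1). Ratios were compared between types by an exact permutation test. A count minimum of 10 in each library applied to arm and cluster ratios. DESeq2 1.42.0, limma 3.58.1, other scalings and filters, and each library left out were alternatives. Replicate numbers followed accession order and pair nothing.

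The 5 members are all named. Likeness names the 3 nearest profiles. Other miRNAs were named from lists with at least 1000 counts in a library. Several miRNAs below that minimum were named after their values were seen. They were miR-499-3p, miR-144, miR-429, miR-124a, miR-9, miR-451, miR-122, miR-194a, miR-885-5p, miR-145-5p, miR-221-3p and miR-222. Also so named were miR-142-3p, miR-142-5p, miR-150, miR-155-5p, miR-146a-5p, miR-146b and miR-214. Members and lists were chosen with earlier results of these data known.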

Additional observations from a re-analysis of the deposited data

How the results depend on the processing

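The count of members past the threshold between types was 0 in every alternative, including each library left out. Among single estimates, the log2 fold change of miR-133a-5p turned to -0.026 with RLE scaling and with DESeq2, that of miR-206 to 0.25 with total counts, and that of miR-133a-3p to -0.25 with the counts of all other miRNAs as library size. With 1 library left out the estimates ranged from -9.44 to 7.91 for miR-1, from -6.53 to 4.86 for miR-206, from -0.22 to 0.38 for miR-133a-3p, from -2.62 to 2.46 for miR-133a-5p and from -0.69 to -0.19 for miR-133b. The type difference of the log2 ratio ranged from -6.14 to 4.46 for miR-1 over miR-133a-3p, from -3.72 to 2.92 for miR-206 over miR-133b, from -1.91 to 2.19 for the arms of miR-133a, from -1.68 to 1.83 for miR-1 over miR-206 and from 0.27 to 0.74 for miR-133a-3p over miR-133b. These fits set 1 library against 2. Deposited CPM, pseudocounts of 0.5 or 1 and summed miR-133 rows turned none of the ratios.

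The number of members at least 2-fold apart depended on the library size. The share of all miRNAs past a fold was computed with TMM scaling at 2-fold only. The counts that follow thus have no background beside them and show no trait of the members. Relative to the counts of the other miRNAs it was 5 for Diannan Small Ear against Tibetan, Diannan Small Ear against Yorkshire, Tibetan against Landrace and Landrace against Yorkshire, and 1 for Diannan Small Ear against Landrace. With total counts it was 5 for Diannan Small Ear against Yorkshire and for Tibetan against Landrace, 4 for Landrace against Yorkshire, and 1 for Diannan Small Ear against Landrace. At 4-fold it was 0 for Tibetan against Yorkshire. With RLE scaling 1 member had types that did not overlap, again without a share of all miRNAs beside it. The cause was not tested. Each breed had 1 library, and the lowest count of a member in any library was 301.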
